A study of Mus musculus with 2 samples.

Results

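Caveolae are flask-shaped pits of the plasma membrane that are built from caveolins and from the cavin proteins that coat them. Their necks are held by EH-domain ATPases and F-BAR proteins, and flotillins build a different, flat kind of lipid raft. The 10 genes Cav1, Cav2, Cav3, Ptrf, Sdpr, Prkcdbp, Ehd2, Pacsin2, Flot1 and Flot2, chosen for their known roles at caveolae and in membrane curvature, were looked up among the 20211 gene symbols of the deposited tables. All 10 were found, each on a single row. Each had a mean RPKM (reads per kilobase of transcript, scaled to sequencing depth) of at least 1, the minimum for the 10068 genes kept. Cav3 reached this minimum only through its WT value.

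RNA was sequenced from cultured primary perivascular cells (PVCs) of the mouse aorta, with 1 wild type (WT) library and 1 Kai1 KO library, both on a C57BL/6 background and with no treatment given. Kai1 is another name of Cd82, a tetraspanin of the plasma membrane. The study's mice were adults of either sex, but the age, sex and number of animals behind each library, and how the Kai1 KO allele was made, were not given in the sources used here. The study compared the genotypes to learn how KAI1 acts in PVCs, and it told flat flotillin rafts from caveolae when it asked where in the membrane KAI1 lies. From protein fractions of cell lines, it reported flat flotillin rafts in pericytes and caveolae in endothelial cells.

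With 1 library per genotype, no difference below has a replicate check, and genotype cannot be told apart from animal, culture or library preparation. Steps in the low values put the depth at about 29550000 reads for the WT library and 26550000 for the Kai1 KO library. The intervals below come from these estimated reads, and they cover counting error only. Cd82 (chr2:93259268-93303297, minus strand) had an RPKM of 12.8 in WT and 2.62 in Kai1 KO. All 4 Y-linked genes above 0 in WT were listed at 0 in Kai1 KO, so that sex and genotype cannot be told apart either. Of the mural markers, Acta2 (smooth muscle actin) had an RPKM of 3823 in WT and 2580 in Kai1 KO, and Pdgfrb had 44.7 and 31.6. The pericyte marker Rgs5, whose mean was under the minimum of 1, had 0.0630 and 0.233. Of the 12 mural markers, 10 were lower in Kai1 KO and 2 were higher, Rgs5 among the latter.

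In cells, CAV1 oligomerises and shapes the pit, CAV2 joins it, and CAV3 takes the place of CAV1 in striated muscle. Cavin-1, encoded by Ptrf, is needed for caveolae to form, and cavin-2 (Sdpr) and cavin-3 (Prkcdbp) bind to it. Caveolae buffer membrane tension and are abundant in endothelial cells, adipocytes and smooth muscle. Flotillin-1 and flotillin-2 share a membrane-anchoring domain with stomatin and the prohibitins and assemble with each other.

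The 250 bases upstream of the first start site are shown for the 3 caveolins, of which Cav1 and Cav2 are neighbours, and for Ptrf and Sdpr, the cavins with the highest level and with the lowest ratio. They are from RefSeq on the build GRCm38.p6, which matched 8 of the 10 genes and not Prkcdbp and Flot1, and each is written 5′ to 3′ on the gene's own strand with every CG dinucleotide in capitals. Cav1 is at chr6:17306085-17306334, Cav2 at chr6:17280935-17281184, Cav3 at chr6:112459255-112459504, Ptrf at chr11:100970618-100970867 on the minus strand and Sdpr at chr1:51288876-51289125; all but Ptrf are on the plus strand.
Cav1: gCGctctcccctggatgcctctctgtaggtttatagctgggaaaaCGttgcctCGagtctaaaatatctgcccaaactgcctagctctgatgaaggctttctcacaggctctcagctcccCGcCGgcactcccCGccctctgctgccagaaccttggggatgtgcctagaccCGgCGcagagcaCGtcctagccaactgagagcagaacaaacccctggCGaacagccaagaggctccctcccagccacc
Cav2: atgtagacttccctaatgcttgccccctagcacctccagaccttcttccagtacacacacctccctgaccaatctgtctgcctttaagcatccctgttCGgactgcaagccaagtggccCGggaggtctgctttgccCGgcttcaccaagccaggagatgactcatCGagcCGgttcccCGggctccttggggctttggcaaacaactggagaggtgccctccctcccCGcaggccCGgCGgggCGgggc
Cav3: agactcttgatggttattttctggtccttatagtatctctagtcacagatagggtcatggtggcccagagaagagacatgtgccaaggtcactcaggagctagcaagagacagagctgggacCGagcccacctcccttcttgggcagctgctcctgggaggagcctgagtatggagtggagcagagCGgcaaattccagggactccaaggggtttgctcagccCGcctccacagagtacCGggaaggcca
Ptrf: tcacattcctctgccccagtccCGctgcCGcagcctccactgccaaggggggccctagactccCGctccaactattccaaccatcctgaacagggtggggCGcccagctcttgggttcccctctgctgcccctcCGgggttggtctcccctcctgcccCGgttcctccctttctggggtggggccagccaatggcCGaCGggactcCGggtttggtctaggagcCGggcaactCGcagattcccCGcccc
Sdpr: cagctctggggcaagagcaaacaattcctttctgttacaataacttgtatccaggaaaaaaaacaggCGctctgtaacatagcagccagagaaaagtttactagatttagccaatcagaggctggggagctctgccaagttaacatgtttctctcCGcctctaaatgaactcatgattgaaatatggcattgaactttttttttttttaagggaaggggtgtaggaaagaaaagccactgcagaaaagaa

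These windows hold 10 CG dinucleotides for Cav1, 10 for Cav2, 4 for Cav3, 12 for Ptrf and 2 for Sdpr. The median over all 32851 windows of this length was 6, and 18.8% of them held fewer than that of Sdpr. The G and C content was 40.4% for Sdpr, and 12.5% of all windows had less. For the other 4 it lay between 56.0% for Cav3 and 67.6% for Ptrf. A GC box, GGGCGG on either strand, stood once upstream of Cav1, Cav2 and Ptrf and not upstream of Cav3 and Sdpr, and 32.7% of all windows held it. An E box, CANNTG on either strand, stood 1 time for Cav1, 2 times for Cav2 and 2 times for Cav3. None was found for Ptrf or Sdpr, and 66.2% of all windows held it. The GC box contains a CG dinucleotide, so that its CG is among those in capitals.

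Most of the 10 genes were highly expressed in both libraries. In WT, the RPKM values ran from 398 for Ptrf through 212 for Prkcdbp, 170 for Flot1, 139 for Sdpr, 88.8 for Flot2, 60.0 for Cav1, 54.9 for Ehd2 and 42.6 for Pacsin2 to 3.71 for Cav3 and 2.23 for Cav2. Ptrf was above 97.1% of the genes kept in WT, and Cav2 was above 16.1% of them. In Kai1 KO the order was the same except in 2 places, since Sdpr stood below Flot2, and Cav3, listed at 0, below Cav2. With their counting intervals, Ptrf (309 to 316) and Prkcdbp (298 to 313) overlapped in Kai1 KO, as did Cav1 (44.4 to 47.7) and Ehd2 (44.1 to 46.4). No other neighbours in either order overlapped.

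**Figure D1:**
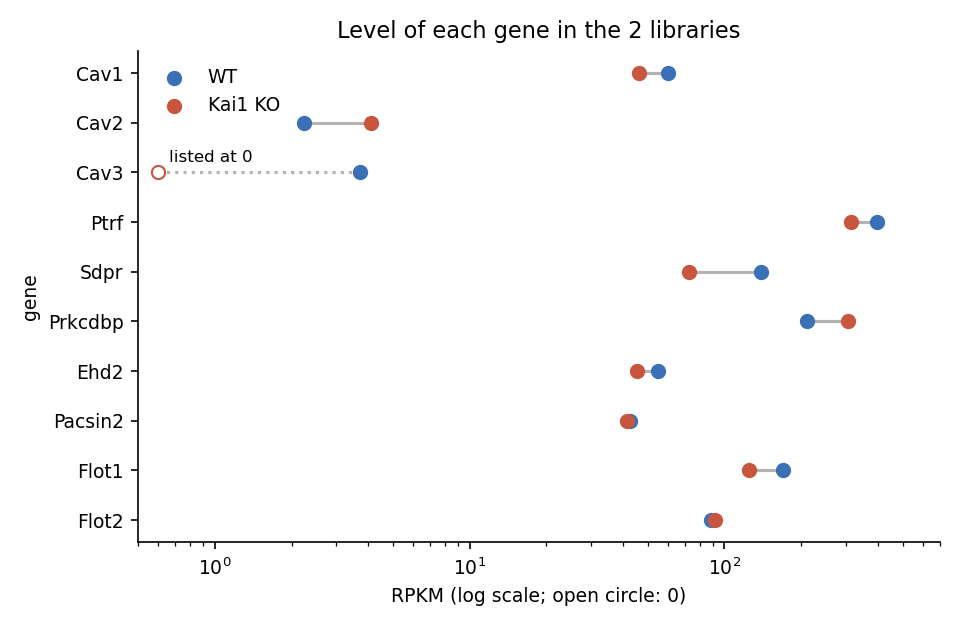
RPKM (log axis) of each of the 10 genes in the WT library (blue) and the Kai1 KO library (red), 1 library each, so that there are no error bars. Cav3 is listed at 0 in Kai1 KO and drawn as an open circle at the left edge. Sdpr, Cav2 and Cav3 have the widest gaps, and Pacsin2 and Flot2 the narrowest.

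Of the 10 genes, 1 was more than 2-fold lower in the Kai1 KO library, against 7.81% of all genes kept, and 0 were more than 2-fold higher, against 7.98%. The gene more than 2-fold lower was Cav3. Of the other 9, 6 were lower and 3 higher, with a median log2 ratio of -0.28, against 0.08 over all genes kept, and a range from -0.94 for Sdpr to 0.85 for Cav2. The log2 ratio is log2((Kai1 KO RPKM + 0.1)/(WT RPKM + 0.1)). In a culture, fewer cells of a type and less RNA per cell cannot be told apart. Over all genes, 786 were lower and 803 higher, against 977 and 594 with the upper quartiles made equal and 1856 and 278 with Gapdh made equal. Scaling also decided the call for Sdpr, which was also more than 2-fold lower, at -1.02, when the median of all genes was set close to 0, and at -1.44 when Gapdh was made equal.

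**Figure D2:**
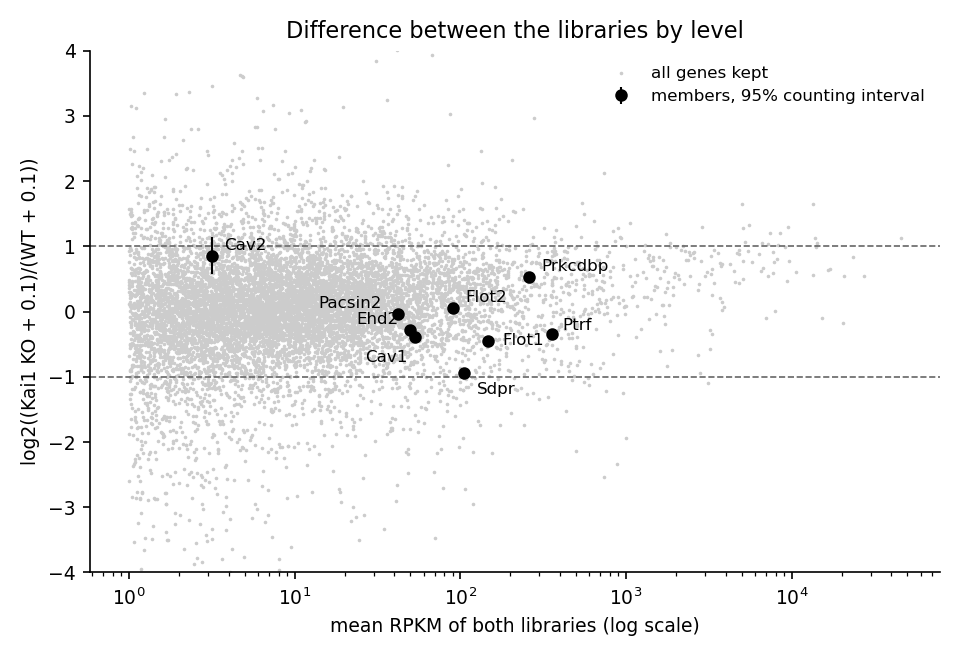
Log2 ratio of Kai1 KO to WT (vertical axis) against mean RPKM (log axis) for the genes kept (grey points, 1 per gene) and for 9 of the 10 genes (black, with 95% counting intervals). Cav3, which has no ratio, is left out, as are 51 genes beyond the vertical axis. Dashed lines mark 2-fold, and all 9 lie between them, with Sdpr at -0.94 nearest to the lower line and Cav2 at 0.85 nearest to the upper.

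Among the caveolins, Cav1 carried nearly all of the transcript in both libraries, and Cav3 was found in WT alone. Cav1 (chr6:17256335-17291452, plus strand, mm9 as for all gene positions here) had an RPKM of 60.0 in WT and 46.0 in Kai1 KO, or 76.7% of WT. Its log2 ratio was -0.38 (95% counting interval -0.45 to -0.32, from about 4515 and 3123 reads). Among the genes kept, 23.1% lay further down. The 200 genes nearest to it in mean RPKM had a lower quartile of -0.22, so that Cav1 was below most genes of its level, and 19.0% of them were lower still.

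Cav2 (chr6:17231185-17239115) ends 17219 bases before Cav1 starts, on the same strand. Its RPKM was 2.23 in WT and 4.10 in Kai1 KO, a log2 ratio of 0.85 (0.57 to 1.14, from about 167 and 277 reads), so that the counting interval takes in the 2-fold line. Of all genes kept, 11.4% had a higher ratio. With Gapdh made equal, the log2 ratio of Cav2 was 0.36. The adjacent genes thus differed in opposite directions, and the ratio of Cav2 to Cav1 went from 0.0371 in WT to 0.0891 in Kai1 KO, a 2.40-fold difference that no scaling of the libraries can move. In both libraries Cav2 remained the lesser transcript, at 3.38% and 8.18% of the caveolin sum.

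Cav3 (chr6:112409495-112422865, plus strand), the caveolin of striated muscle, had an RPKM of 3.71 in WT, or about 105 reads, and was listed at 0 in Kai1 KO. A count of 0 allows up to 3 reads (a one-sided 95% limit, unlike the two-sided intervals given for the other levels), which for Cav3 correspond to an RPKM of 0.116 at the estimated depth. Of the 951 other genes with a WT value within 1.2-fold of that of Cav3, 9 were at 0 in Kai1 KO, and so were 22 of all genes kept, Cav3 included. No exon of another annotated gene overlapped Cav3 or any other of the 10 genes.

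Genes of muscle did not all go the same way as Cav3. Of 14 striated muscle markers, 6 were listed at 0 in both libraries, among them Myod1, a master regulator of muscle, and Myh2, a fast myosin. Acta1, the skeletal muscle actin, had 15.3 in WT and 0.888 in Kai1 KO, whereas Tnnt2, the cardiac troponin T, had 62.6 and 132. The summed level of this list was 79.7 in WT and 135 in Kai1 KO, and without Tnnt2, left out after the values were seen, 17.1 and 2.81. Of the 14 markers, 5 were lower and 3 higher in Kai1 KO. Of 12 mural markers, 10 were lower in Kai1 KO. Of the 8 kept, 4 were more than 2-fold lower, against 7.81% of all genes kept. Among these 4 were Myh11, the smooth muscle myosin, at 2.96 and 0.346, and Mcam, at 4.90 and 0.264. Both reached the minimum mean only through their WT values. The summed level of the mural markers was 4682 and 3020, and without Acta2, the highest of them, 859 and 440. The part of these cells or of their state in the value of Cav3 was not tested.

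In the values as deposited, the cavins differed in make-up more than in amount. Their summed RPKM was 749 in WT and 691 in Kai1 KO, or 92.2% of WT, while Sdpr went from 18.6% to 10.5% of this sum and Prkcdbp went from 28.3% to 44.2%. These shares do not depend on how the libraries are scaled, but the summed level does. With Gapdh made equal, all Kai1 KO values shift by a log2 of -0.50. Shares and sums are set by 1 library each.

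Ptrf (chr11:100818047-100832201, minus strand) was the highest of the 10 genes, with an RPKM of 398 in WT and 313 in Kai1 KO. Its log2 ratio was -0.35 (-0.37 to -0.32, from about 38687 and 27404 reads). Relative to Cav1 it hardly moved, with 6.63 Ptrf to 1 Cav1 in WT and 6.79 in Kai1 KO, a log2 difference of 0.04 (-0.03 to 0.11) whose counting interval includes 0.

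Sdpr (chr1:51345970-51359803, plus strand) had an RPKM of 139 in WT and 72.6 in Kai1 KO, or 52.1% of WT, a log2 ratio of -0.94 (-0.99 to -0.89). Only 8.67% of the genes kept, and 11.0% of the 200 nearest in mean RPKM, were lower. Prkcdbp (chr7:112629121-112630711, minus strand) had an RPKM of 212 in WT and 305 in Kai1 KO, a log2 ratio of 0.53 (0.48 to 0.58). Of the 200 genes nearest to it, 27.5% had a higher ratio. The log2 ratio of Prkcdbp depended on scaling, and was 0.03 with Gapdh made equal and 0.04 with the same sum of RPKM.

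Set against each other, there were 1.52 Prkcdbp to 1 Sdpr in WT and 4.21 in Kai1 KO, a 2.77-fold difference (log2 1.47, 1.40 to 1.54). Both differed from Ptrf, by a log2 of -0.59 (-0.64 to -0.54) for Sdpr and of 0.88 (0.82 to 0.93) for Prkcdbp. Prkcdbp has a short transcript, of 1035 bases, and Sdpr one of 3054 bases. Genes kept with transcripts within 1.2-fold of these lengths had a median log2 ratio of 0.31 for the first and 0.06 for the second, a difference that goes the same way and is smaller. Its part in the ratio of Prkcdbp to Sdpr was not tested.

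**Figure D3:**
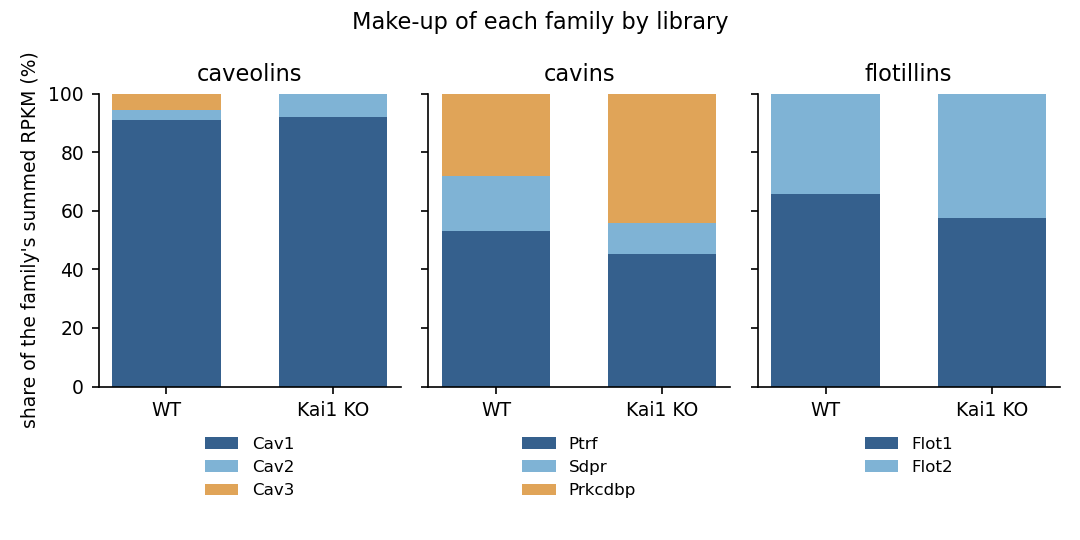
Share of each gene (%, vertical axis from 0) in the summed RPKM of the caveolins, the cavins and the flotillins, with 1 stacked bar per library and no error bars. Among the cavins, Prkcdbp goes from 28.3% in WT to 44.2% in Kai1 KO while Sdpr goes from 18.6% to 10.5%. Cav1 makes up 91.0% and 91.8% of the caveolin sum.

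Of the genes of the caveola neck, Ehd2 was lower in the Kai1 KO library and Pacsin2 nearly equal in the values as deposited, whereas with Gapdh made equal their log2 ratios were -0.78 and -0.53. Ehd2 (chr7:16532326-16552916, minus strand), an ATPase that rings the neck and holds caveolae at the membrane, had an RPKM of 54.9 in WT and 45.2 in Kai1 KO, a log2 ratio of -0.28 (-0.33 to -0.23). Pacsin2 (chr15:83206037-83295036, minus strand), an F-BAR protein that bends the membrane, had 42.6 and 41.6, a log2 ratio of -0.03 whose interval (-0.10 to 0.03) includes 0. There were 0.914 Ehd2 to 1 Cav1 in WT and 0.982 in Kai1 KO, a log2 difference of 0.10 (0.02 to 0.19) whose counting interval does not include 0.

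Flot1 and Flot2, whose products assemble with each other, differed from each other in their ratios. Flot1 (chr17:35960175-35969736, plus strand) had an RPKM of 170 in WT and 125 in Kai1 KO, or 73.5% of WT, a log2 ratio of -0.44 (-0.49 to -0.39). Of the 200 genes nearest to it in mean RPKM, 13.5% had a lower ratio. Flot2 (chr11:77851433-77873936, plus strand) had 88.8 and 92.0, a log2 ratio of 0.05 (0.00 to 0.10). This sign turned under each of the 4 scalings of the libraries, with values from -0.45 to -0.03. There were 1.91 Flot1 to 1 Flot2 in WT and 1.35 in Kai1 KO, a log2 difference of -0.50 (-0.57 to -0.43).

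The balance of flat raft to caveola transcripts differed between the libraries in a direction that depended on the genes counted. The sum of Flot1 and Flot2 was 258 in WT and 217 in Kai1 KO, and that of the caveolins and cavins was 815 and 741. Flotillins over caveolins and cavins thus gave 0.317 in WT and 0.292 in Kai1 KO, a log2 difference of -0.12 (-0.16 to -0.08). Against the caveolins alone, the balance was 3.92 and 4.32, a log2 difference of 0.14 (0.07 to 0.22). Cav3, listed at 0 in Kai1 KO, made up 5.63% of this caveolin sum in WT. The part of Cav3 in the direction of this difference was not tested. Flot1 over Cav1 gave 2.83 and 2.71, with a log2 difference of -0.06 (-0.14 to 0.02) that includes 0. In both libraries, flotillin transcripts outnumbered those of the caveolins per unit of length, but not those of caveolins and cavins together. These are transcripts of PVCs, whereas the study set raft proteins of pericytes against those of endothelial cells, so the measures are not alike.

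**Figure D4:**
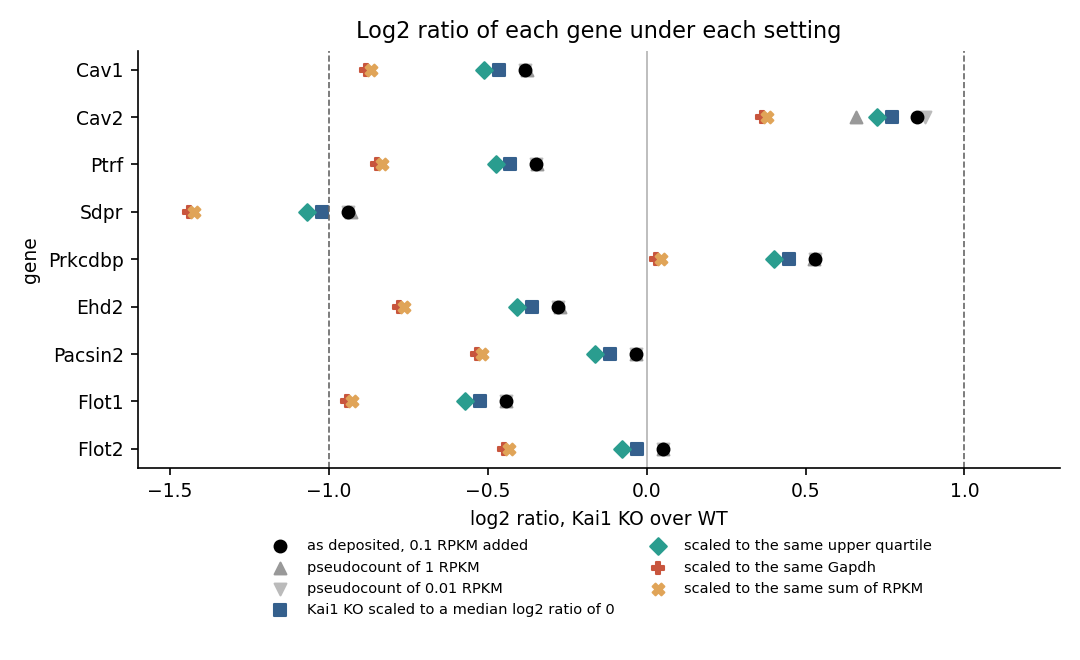
Log2 ratio of Kai1 KO to WT (horizontal axis) of each of 9 genes, with 1 symbol per setting and dashed lines at 2-fold. Scaling moves all genes alike to the left, so that Sdpr crosses the lower line under each of the 4 scalings and Flot2 crosses 0. Cav2 and Prkcdbp stay above 0 in every setting drawn, but Prkcdbp lies close to it under 2 scalings. Its values there are 0.03 with Gapdh made equal and 0.04 with the same sum of RPKM.

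Relatives of these genes are read against the 7.81% of all genes kept that were more than 2-fold lower and the 7.98% that were higher. Of 6 other EHD, PACSIN and cavin genes, 4 were kept, and none was more than 2-fold lower or higher. Ehd1, which acts in endosomal recycling, had an RPKM of 113 in WT and 91.8 in Kai1 KO and was thus above Ehd2 in both. Ehd3 had 2.99 and 2.58, Ehd4 had 7.63 and 8.43, and Pacsin3 had 20.7 and 20.8. The genes not kept were Murc, the cavin of muscle, with 0.531 and 0.711, and Pacsin1, the neuronal form, listed at 0 in WT and with 0.121 in Kai1 KO.

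Among 7 kept genes of 9 with the domain that flotillins share, 1 was more than 2-fold lower and 1 higher, or 14.3% each of a list so short that 1 gene makes this share. Stom, encoding stomatin, had an RPKM of 14.9 in WT and 4.86 in Kai1 KO, a log2 ratio of -1.59, and Erlin1, a raft protein of the endoplasmic reticulum, had 3.32 and 7.49, a log2 ratio of 1.15. The median was 0.67, with the mitochondrial prohibitins Phb (0.80) and Phb2 (0.67) above 0. The dynamins, which cut vesicles off the membrane, had 2 of 3 genes kept and none past 2-fold.

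Of 32 other BAR domain genes in the tables, whose products bend membranes, 26 were kept, with a median log2 ratio of -0.17. Of these, 2 were more than 2-fold lower, Srgap1 (-1.85) and Pstpip1 (-1.50), and 3 were higher, Fnbp1l (1.13), Baiap2l1 (1.11) and Baiap2l2 (1.06). These counts are 7.69% and 11.5% of the list, near the shares over all genes kept. The genes of the clathrin and AP2 coat, the other large route of uptake from the membrane, had 14 of 14 kept and 0 past 2-fold, with ratios from -0.46 to 0.49 and a median of -0.13.

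Among 14 receptors and signalling genes known to act at caveolae, 8 were kept, with a median log2 ratio of -0.11. Fyn, a Src family kinase that couples to CAV1, had an RPKM of 11.9 in WT and 4.12 in Kai1 KO, a log2 ratio of -1.51. Ror1, a receptor that holds CAV1 and cavin-1 together, had 0.970 and 3.24, a log2 ratio of 1.64, and was the only one of the 8 more than 2-fold higher. Its mean reached the minimum only through its Kai1 KO value. Fyn was the only one more than 2-fold lower. Each direction thus made up 12.5% of the kept genes of this list, against 7.81% lower and 7.98% higher over all genes kept. Src itself had 11.8 and 9.19. Nos3, the endothelial nitric oxide synthase, and Cd36, a fatty acid receptor, were listed at 0 in both libraries.

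**Figure D5:**
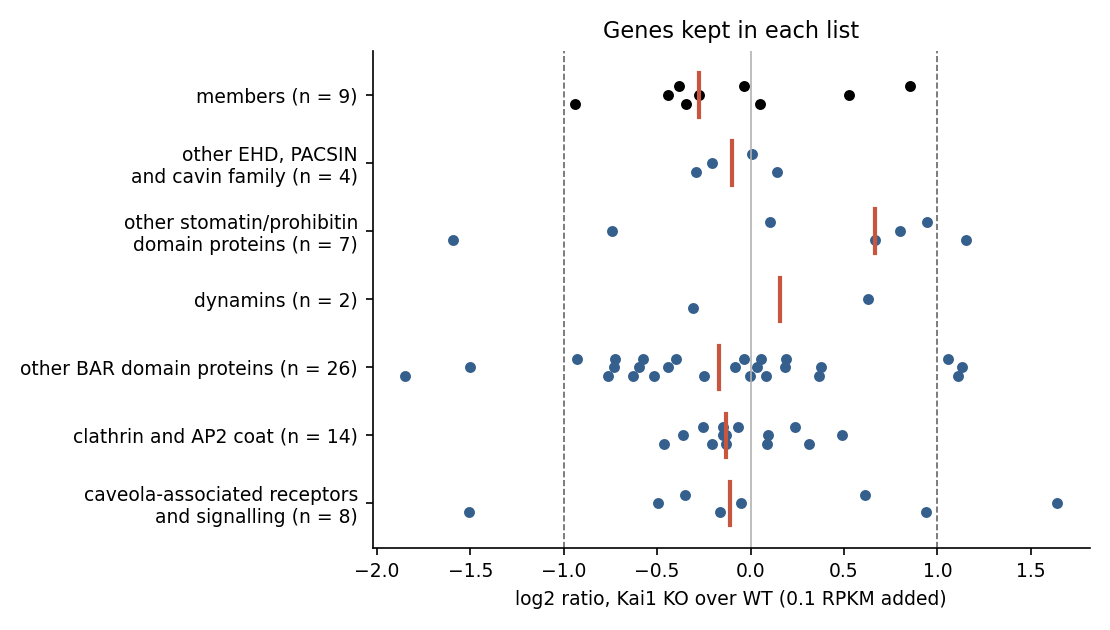
Log2 ratio of Kai1 KO to WT (horizontal axis) of the genes kept in each list, 1 point per gene, with a red bar at each list's median and dashed lines at 2-fold. The 14 clathrin and AP2 genes and the 9 caveola and flotillin genes drawn, without Cav3, lie between the lines. Genes of the stomatin, BAR domain and caveola-associated receptor lists lie beyond them on both sides.

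Caveolae are abundant in endothelial cells and adipocytes, so the markers of these cells stand beside the values above. Of 12 endothelial markers, 7 had an RPKM below 0.1 in both libraries, among them Cdh5, Cldn5 and Vwf, and 7 were lower and 1 higher in Kai1 KO. Pecam1 had 0.413 in WT, Tek 0.409 and Kdr 0.122, and each was listed at 0 in Kai1 KO. The 1 higher was Egfl7, and the summed level was 3.44 in WT and 7.47 in Kai1 KO with it and 1.16 and 0.0825 without it. Of 10 adipocyte markers, 4 were listed at 0 in both libraries, among them Adipoq and Lep, and 4 were lower and 2 higher in Kai1 KO. The summed level was 14.2 and 9.14, and 3.65 and 4.62 without its highest gene, Fabp4. Lpl had 1.04 in WT and 0.0586 in Kai1 KO, whereas Retn was listed at 0 in WT and had 2.17 in Kai1 KO. Of 12 macrophage markers, 3 were kept, all more than 2-fold lower in Kai1 KO, against 7.81% of all genes kept. In both libraries 2 were at 0. The summed level was 27.8 and 6.96, led by Csf1r, and 16.1 and 4.30 without it. The part of such cells in the levels of the caveola genes was not tested.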

How the data were processed

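RNA of 1 WT and 1 Kai1 KO culture of aortic PVCs was analysed, grouped by the genotype labels. The authors aligned reads to mm9 (NCBI37) with TopHat 2.0.9 and Bowtie and deposited 1 RPKM per RefSeq gene and library. The labels also name Cufflinks. Depth, read length and strand were not given in the sources used here, and labels and methods differ in the serum of the medium.

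Values of the 153 repeated symbols were averaged, and 38 entries that name no gene were dropped. With 1 library per genotype, no test was made, and genes past 2-fold were counted among those kept. The members and lists were chosen with earlier results of these data known. The text names the members, Cd82, the members' relatives, the kept genes of the pathway lists past 2-fold and, in each cell type list, the gene with the highest RPKM. Other genes were named after their values were seen, and Fer was not found under that symbol.

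Depth was estimated from protein-coding genes with 1 annotated transcript of over 800 bases. The RPKM times the length, less 200 bases for WT and 190 for Kai1 KO, fell within 0.15 of a whole read for 81.1% and 79.8% of 391 and 198 low values, against 30% if spread evenly. Depth and the bases taken off were chosen to bring these same values closest to whole reads. The percentages thus describe the fit and are not a separate check of it. Reads used the longest GENCODE M1 transcript on NCBI37 and are approximate. Intervals are exact (binomial for a ratio, Poisson for a level) or, for balances, normal. The 2-fold call was tested on simulated data that held counting error only, so that differences between cultures or in scaling were not covered. Python 3.11.15, numpy 2.4.6, pandas 2.3.3, scipy 1.17.1 and matplotlib 3.10.9 were used.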

Additional observations from a re-analysis of the deposited data

How the results depend on the processing

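The number of the 10 genes more than 2-fold lower was 1 in the reported setting and with a pseudocount of 1 or 0.01 RPKM. It was 2 under each of the 4 scalings (median close to 0, same upper quartile, same Gapdh, same sum of RPKM), which added Sdpr, and 0 when genes under a mean of 5 RPKM were dropped, which leaves out Cav2 and Cav3. None was more than 2-fold higher in any setting tried. Of 54 recomputed log2 ratios of the 9 genes other than Cav3, 34 moved beyond the counting interval, which is all scaled values but 2 of Cav2, and 4 changed sign, all of Flot2. Over all genes, 786 were lower and 803 higher as reported, against 904 and 657 with the median close to 0, 977 and 594 with the same upper quartile, 1856 and 278 with Gapdh made equal, 1816 and 286 with the same sum, 1878 and 1205 without a filter, and 350 and 511 when those under 5 RPKM were dropped. The scalings moved the median of all genes from 0.08 to between -0.41 and 0.00, and they shift all genes alike by construction. The log2 difference in the flotillin balance was -0.12, against -0.061 for Flot1 over Cav1 alone and -0.13 without Cav1. No paired analysis was possible because there is a single WT library and a single Kai1 KO library. Depth limits Cav2 and Cav3, with about 167 and 105 reads in WT.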
